A study of Mus musculus with 4 samples.

Results

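Cx3cr1-positive, Tox-negative effector CD8+ T cells were 60 of 4267 CD8+ T cells (1.41%, 95% Wilson interval 1.09 to 1.81) in the spleens of leukemia-bearing mice after allogeneic transplantation. That interval pools 4 libraries and covers counting error only, and the share ran from 0.943% to 2.03% between libraries. The 60 cells were chosen cell by cell on their own counts of unique molecular identifiers (UMIs), where 1 UMI marks 1 captured RNA molecule. Of 15784 barcodes in 4 libraries, 11632 had at least 500 genes, at least 1000 gene UMIs and at most 10% mitochondrial UMIs. CD8+ T cells had a UMI of Cd3d, Cd3e or Cd3g and of Cd8a or Cd8b1, and none of Cd4 or Klf1. The 60 members also had a Cx3cr1 UMI, no Tox UMI, a UMI of Klrg1, S1pr5 or Zeb2, and no UMI of Mki67 or Top2a. Levels of these 14 genes therefore describe the choice, and the genes were left out of every test.

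BALB/c recipients were lethally irradiated, received 10000 WEHI-3B myeloid leukemia cells and donor bone marrow, and were given 200000 donor spleen T cells on day 2. Spleen T cells were enriched on day 23. The donors were C57BL/6 mice of 2 genotypes with 2 libraries each: Havcr2fl/fl;E8icre/+, in which cre driven by the E8I enhancer of Cd8a is meant to delete floxed Havcr2 in mature CD8+ T cells, and Havcr2fl/fl without cre. Mice were 7 to 12 weeks old. The irradiation, the leukemia, the marrow transfer and the floxed alleles were common to all 4 libraries. An oligo-tagged antibody to donor H-2Kb was counted beside the genes.

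CX3CR1 is the receptor of the membrane-bound chemokine fractalkine and marks cytotoxic effector T cells that circulate through blood. KLRG1 is an inhibitory lectin receptor of terminally differentiated effectors, S1PR5 is a receptor for sphingosine 1-phosphate, and ZEB2 is a repressor that acts with T-bet in effector fate. TOX is the transcription factor that installs exhaustion under persistent antigen, the state in which T cells keep inhibitory receptors and lose function.

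Promoters are shown for 3 genes higher in members, from the effector fate list and the egress, adhesion and migration list described below. These genes are Tbx21, which encodes T-bet, Klf3, a zinc-finger factor related to Klf2, and S1pr4, a sphingosine 1-phosphate receptor. Each promoter is the 250 bases before the RefSeq start on GRCm38.p6, 5′ to 3′ on the strand of the gene. They lie at chr11:97115332-97115581 (Tbx21, minus strand), chr5:64803271-64803520 (Klf3, plus strand) and chr10:81500138-81500387 (S1pr4, minus strand). Capitals mark CAGGTG, an E-box that ZEB factors can bind, and CACCC, which KLF factors can bind, read on either strand.
Tbx21: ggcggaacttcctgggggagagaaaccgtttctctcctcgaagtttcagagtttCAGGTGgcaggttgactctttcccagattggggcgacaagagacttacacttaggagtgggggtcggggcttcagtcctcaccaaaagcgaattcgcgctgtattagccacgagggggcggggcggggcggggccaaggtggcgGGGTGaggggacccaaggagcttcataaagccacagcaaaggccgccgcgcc
Klf3: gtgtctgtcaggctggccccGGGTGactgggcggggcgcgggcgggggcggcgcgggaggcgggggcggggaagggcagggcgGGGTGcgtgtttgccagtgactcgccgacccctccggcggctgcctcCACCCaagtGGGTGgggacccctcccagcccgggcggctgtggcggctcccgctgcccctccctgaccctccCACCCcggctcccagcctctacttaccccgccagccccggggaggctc
S1pr4: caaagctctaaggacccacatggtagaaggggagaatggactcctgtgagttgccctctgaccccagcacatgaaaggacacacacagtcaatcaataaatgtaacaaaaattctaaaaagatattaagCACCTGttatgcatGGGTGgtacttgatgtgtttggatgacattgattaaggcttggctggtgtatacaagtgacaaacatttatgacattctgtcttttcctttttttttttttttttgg

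The Klf3 window held 5 matches to CACCC, and those of Tbx21 and S1pr4 held 1 match to each of the 2 motifs. The same letters were sought on both strands, with AGGTGTGA of T-box factors, which can overlap CAGGTG, in windows that reach 50 bases past the start. Of 8 genes looked up, 7 matched the RefSeq table, with 8 windows (Batf, Hopx, Tbx21, Id2, Klf3, Klf2 and S1pr4), and S1pr1 had no entry. CACCC was in 6 of the 8 windows and in 57.5% of all 32851 promoters of the table. CAGGTG was in 2 of the 8 windows and in 20.2% of all promoters. AGGTGTGA was in 0 of the 8 and in 1.3% of all. A match describes letters and not a bound site.

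The members numbered 25 and 13 in Havcr2fl/fl;E8icre/+ replicates 1 and 2 and 10 and 12 in Havcr2fl/fl replicates 1 and 2, the order of libraries in all values below. Of 572 CD8+ T cells with a Cx3cr1 UMI, 311 had no UMI of Mki67 or Top2a, and 100 of those had no Tox UMI. A UMI of Klrg1, S1pr5 or Zeb2 was present in 60 of the 100. Just inside the limits were 14 members with a single Cx3cr1 UMI and 14 with a single UMI over Klrg1, S1pr5 and Zeb2. Just outside were 45 cells that met everything but Cx3cr1, 10 that failed by 1 Tox UMI, 40 without the partner genes and 18 with Mki67 or Top2a.

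Zeb2 was the partner gene in most members. It was detected alone in 23, with S1pr5 in 12, with Klrg1 in 9 and with both in 9, while 3 members had Klrg1 alone, 2 had S1pr5 alone and 2 had these 2 genes together. Cx3cr1 (ENSMUSG00000052336, chr9:119901616-120069879, minus strand, GRCm38) had 60, 54, 44 and 28 UMIs in the summed members, or 746, 917, 918 and 1021 UMIs per 1000000 gene UMIs of the sum (CPM). Zeb2 had 75, 42, 29 and 13 UMIs, or 681 ± 194 CPM (SD, n = 4). Klrg1 stood at 190 ± 81.0 CPM and S1pr5 at 170 ± 73.1 CPM, each lowest in Havcr2fl/fl replicate 2, the library with the fewest UMIs per member.

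T cell receptor constant genes of the alpha-beta type were found in nearly every member. Trac, Trbc1 or Trbc2 gave a UMI in 59 of 60, and Trdc, the constant gene of the delta chain, in 0 of 60 cells, which allows a share of up to 5.0% of cells with a UMI. Such limits and intervals cover counting error only, and they bound detection and not expression. The 3 alpha-beta genes summed to 2475, 3633, 1982 and 2407 CPM in members and 3869, 3805, 4072 and 3898 CPM in the other 4207 CD8+ T cells. The gamma-delta list had 11 UMIs in 6 members, 8 of them from Tcrg-C2, and summed to 24.9, 50.9, 0 and 219 CPM against 293, 283, 160 and 145 CPM, above the others in Havcr2fl/fl replicate 2. Of 9 natural killer (NK) cell markers, 4 had a UMI in members, 32 UMIs in all, of which Klrb1c gave 22, and Ncr1, Klra8, Klra4, Khdc1a and Gzmc were at 0. The NK list summed to 162, 119, 188 and 109 CPM in members and 235, 179, 175 and 172 CPM in the others, where Eomes was its most abundant gene.

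Erythroid, myeloid or leukemia and B cell RNA was lower in the members than in the others in each of the 4 libraries. The 8 erythroid genes, led by Hbb-bs, summed to 336, 221, 271 and 839 CPM in members and 5506, 3003, 7796 and 4831 CPM in other CD8+ T cells, with Alas2 at 0 in members. The 11 myeloid or leukemia genes, led by Ctss in members, summed to 99.5, 50.9, 167 and 146 CPM against 271, 690, 2827 and 281 CPM, with Csf1r and Adgre1 at 0. The 7 B cell genes, led by Igkc, summed to 299, 272, 229 and 1131 CPM against 301, 3011, 312 and 2407 CPM, with Cd79b and Ms4a1 at 0. The part of these genes in the differences below was not tested. The regulatory T cell list had 6 UMIs, 5 of them from Il2ra, with Foxp3 at 0, and averaged 30.01 CPM in members and 27.2 CPM in others. The invariant T cell list had 4 UMIs, all from Cd1d1, with Zbtb16 at 0, and averaged 17.8 against 14.5 CPM. The 4 megakaryocyte genes were at 0 in members.

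Members held fewer UMIs per cell than the other CD8+ T cells as a whole. Their median was 2846, 4053, 4049 and 2147 UMIs per cell, against 4828, 6200, 7062 and 3052 in other CD8+ T cells. Members were lower in 4 of 4 libraries, with a ratio of 0.628 (exact sign-flip test, two-sided, p = 0.125, the smallest that 4 pairs allow). A cell with few UMIs is also more likely to show no Tox, Mki67 or Top2a, so depth and the choice cannot be told apart here. Over all libraries the median was 3329 in members and 2981.5 in the 446 other CD8+ T cells that also lacked Tox, Mki67 and Top2a. The summed members held 80396, 58908, 47941 and 27418 UMIs, and the sums of the other CD8+ T cells ran from 4145107 to 8965378.

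The donor H-2Kb tag was found on members in every library, with at least 317 tag UMIs in each member. Its median was 731, 748, 1406.5 and 634 UMIs in members and 1530, 1910, 2362 and 1220 in other CD8+ T cells. Per 1000 gene UMIs it was 276.4, 191.2, 308.9 and 303.3 against 308.0, 287.9, 314.7 and 380.6, a ratio of 0.826 (lower in 4 of 4 libraries, exact sign-flip p = 0.125).

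Havcr2 (chr11:46454935-46481255, plus strand, GRCm38), which encodes the inhibitory receptor TIM-3, checks the genotype labels. In other CD8+ T cells it had 542, 57, 219 and 553 UMIs, or 60.5, 7.99, 52.8 and 114 CPM. The library labelled Havcr2fl/fl;E8icre/+ replicate 1 was thus not below Havcr2fl/fl replicate 1, and the label of that library was not borne out by this RNA. UMIs come from the 3′ end of the RNA, and a tag outside the deleted part would check nothing. The members held 5, 0, 1 and 0 Havcr2 UMIs in 3 cells, too few to compare genotypes.

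The share of members among CD8+ T cells did not separate the genotypes. It was 1.62% (Wilson 1.10 to 2.38) and 1.35% (0.793 to 2.30) in the libraries labelled Havcr2fl/fl;E8icre/+ and 2.03% (1.11 to 3.69) and 0.943% (0.540 to 1.64) in those labelled Havcr2fl/fl. The means were 1.49% ± 0.189 and 1.49% ± 0.767 (SD, n = 2; exact permutation test, two-sided, p = 1.0, where the smallest p that 2 against 2 allows is 0.333). With at least 2 UMIs of Klrg1, S1pr5 and Zeb2 required of members, the shares were 1.36%, 1.25%, 1.62% and 0.393%, the last from 5 members. Cx3cr1-positive CD8+ T cells that met every condition but had Tox numbered 14, 14, 8 and 10, or 0.908%, 1.46%, 1.62% and 0.786%.

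**Figure D1:**
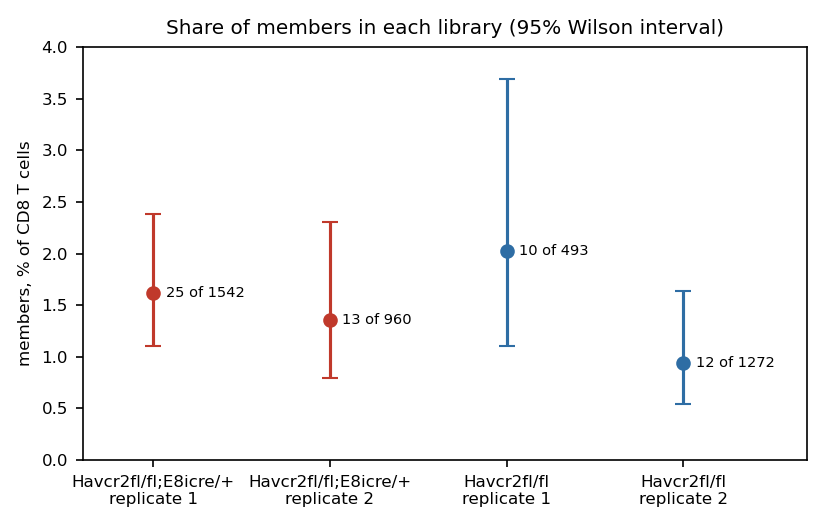
Members as a percent of CD8 T cells (y axis) in each of the 4 libraries (x axis), with 95% Wilson intervals as bars and the counts beside each point. The 2 Havcr2fl/fl libraries lie at 2.03% and 0.943%, on either side of both Havcr2fl/fl;E8icre/+ libraries.

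Ly6c2, which encodes a Ly6C surface protein of effector and memory CD8+ T cells, was the one marker of these cells that the choice did not use. Ly6c2 (ENSMUSG00000022584, chr15:75108158-75111970, minus strand, GRCm38) had 154, 63, 59 and 44 UMIs in members, or 1916, 1069, 1231 and 1605 CPM. Other CD8+ T cells had 145, 228, 354 and 243 CPM, and every library of members lay above every library of the others. The difference was 2.37 on the log2 scale (SE 0.16, edgeR quasi-likelihood test on UMIs summed per library, library as a block, adjusted p = 3.12e-47). Against the 446 other CD8+ T cells that also lacked Tox, Mki67 and Top2a the difference was smaller, 0.77 (adjusted p = 0.0186). A Ly6c2 UMI was in 48 of 60 members. With each cell thinned to 1500 UMIs it was in 65.5% ± 11.8 of members (SD, n = 4), 12.6% ± 3.14 of other CD8+ T cells and 1.75% ± 1.71 of erythroid cells, which should lack it and had medians of 13081 to 24224 UMIs before thinning.

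Against all other CD8+ T cells of the same library, the members had high RNA for egress, adhesion and migration genes, for granzyme A and for NK-type receptors. They had low RNA for exhaustion and cell cycle genes. Of 9031 genes tested, 172 were higher (1.90%) and 579 lower (6.41%) at an adjusted p under 0.05. The median of all genes was -0.36 on the log2 scale with TMM, the composition scaling of edgeR, and changes are read against it. With DESeq2 size factors that median was -0.18, with 238 genes higher and 366 lower, and with plain library sizes -0.09, with 293 higher and 315 lower.

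The other CD8+ T cells include Tox-positive and cycling cells, so cell cycle and Tox-linked genes were tied to the choice. A second comparison, added after the data were seen, used those 446 Tox-negative, non-cycling cells, whose median was 2981.5 UMIs per cell against 3329 for the members. Of 2420 genes, 67 were higher and 82 lower there, and the median of all genes was -0.02. The 446 cells included 45 that met every condition but Cx3cr1 and 40 that lacked only Klrg1, S1pr5 and Zeb2. The part of these near cells in the smaller differences was not tested.

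**Figure D2:**
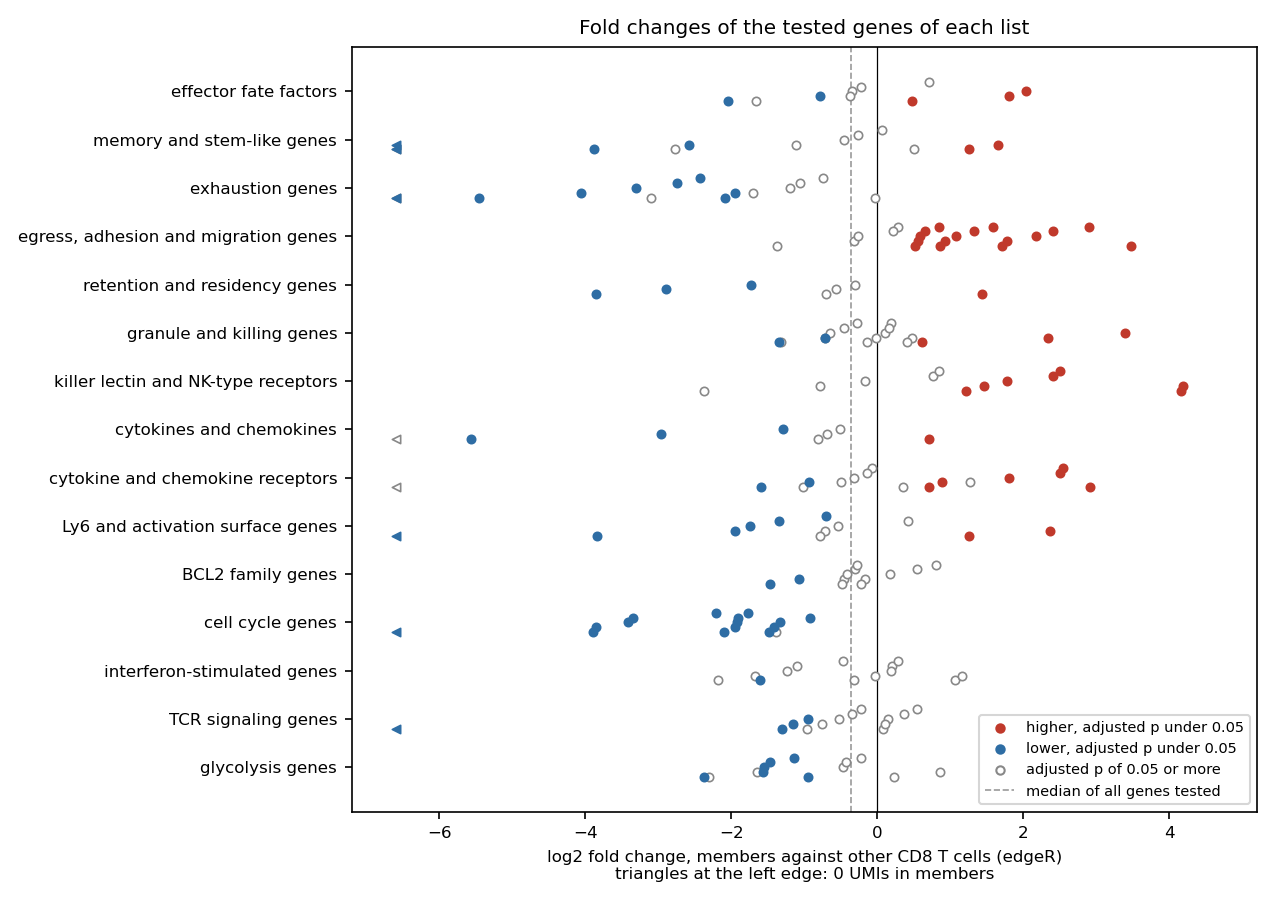
Each point is 1 tested gene of a list (y axis), placed by its log2 fold change in summed members against other CD8 T cells over 4 libraries (x axis, edgeR); filled points passed an adjusted p under 0.05, triangles had 0 UMIs in members and the dashed line is the median of all genes, -0.36. Of the egress, adhesion and migration genes 16 were higher and 0 lower, and of the exhaustion genes 8 were lower and 0 higher.

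Egress, adhesion and migration genes were higher as a group. Of 22 listed genes 21 were tested, 16 were higher and 0 lower, with a median of 0.86 against -0.36 for all genes (log2 scale). Klf2 encodes the factor that keeps sphingosine 1-phosphate receptors on in circulating T cells. Klf2 (chr8:72319033-72321656, plus strand) had 103, 83, 65 and 61 UMIs in members, or 1281, 1409, 1356 and 2225 CPM, against 135, 216, 331 and 320 CPM in other CD8+ T cells. The groups did not overlap (log2 fold change 2.41, SE 0.15, adjusted p = 1.08e-51). Klf2 was found in 60 of 60 members, at 1 to 19 UMIs with a median of 4.5, and in 1160 of 4207 others. Its relative Klf3, whose promoter is shown above, had 485, 289, 480 and 255 CPM against 31.5, 45.4, 54.3 and 47.3 CPM (2.90, SE 0.27, adjusted p = 2.90e-24). Against the Tox-negative, non-cycling cells both differences were smaller, 1.49 for Klf2 and 1.83 for Klf3.

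The sphingosine 1-phosphate receptor genes S1pr1 and S1pr4 were higher too. S1pr1 had 336, 238, 229 and 182 CPM in members and 31.6, 52.8, 81.5 and 35.9 CPM in the others, without overlap (log2 fold change 2.17, SE 0.30, adjusted p = 9.83e-11), and the difference was 1.04 against the Tox-negative, non-cycling cells. S1pr4 had 323, 289, 271 and 255 CPM against 59.1, 66.8, 88.8 and 73.1 CPM (1.77, SE 0.28, adjusted p = 1.90e-08), a call that was lost with cells thinned to 1500 UMIs (0.95, adjusted p = 0.27). The integrin genes Itgax (13 UMIs), Itgb1, Itgb7 and Itgal were called, as were Rasgrp2, which activates the integrin switch RAP1, and Selplg, the P-selectin ligand. Against the 446 Tox-negative, non-cycling cells 10 of 19 tested egress, adhesion and migration genes were higher and 0 lower: Klf3, Rasgrp2, Klf2, Itgb1, S1pr4, Emp3, S1pr1, Lgals1, Ahnak and S100a10.

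Genes of retention in tissue went both ways. Of 10 listed 7 were tested, 3 were lower and 1 higher, with a median of -0.71. Rgs1, a brake on chemokine receptor signaling, had 2 UMIs in members and fell by 3.86 on the log2 scale (SE 0.67, adjusted p = 6.46e-07), and Cd200r1 and Cxcr3, the receptor of interferon-induced chemokines, were lower, the former not with DESeq2 (adjusted p = 0.0507). Itga1, a collagen-binding integrin, was higher (1.43, SE 0.44, adjusted p = 0.0175, 22 UMIs), a call that was lost without any of 3 libraries. Cxcr6 had 398 ± 120 CPM against 413 ± 26.8 CPM (log2 fold change -0.31, adjusted p = 0.39). Itgae, the integrin of epithelial residence, had a UMI in 0 of 60 members, which allows a share of up to 5.0% of cells with a UMI, and in the others it averaged 2.20 CPM.

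Granule genes did not move as one. Of 18 listed 17 were tested, 3 were higher and 2 lower, with a median of -0.02. The 2 lower included Tnfsf10 (-1.35, adjusted p = 0.0370, 10 UMIs). Its call was lost with DESeq2, after thinning, without any 1 of the 4 libraries and against the Tox-negative, non-cycling cells. Gzma encodes granzyme A, a serine protease delivered into target cells. Gzma (chr13:113093825-113100981, minus strand) had 569, 303, 204 and 264 UMIs in members, or 7077, 5144, 4255 and 9629 CPM, against 1337, 711, 368 and 2741 CPM. The lowest library of members lay above the highest of the others (log2 fold change 2.33, SE 0.11, adjusted p = 3.19e-93), and the difference was 3.32 against the Tox-negative, non-cycling cells. After thinning, Gzma was in 79.1% ± 6.83 of members, 21.04% ± 12.6 of others and 0.246% ± 0.233 of erythroid cells.

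Gzmb, which encodes the caspase-cleaving granzyme B, had 759, 662, 647 and 1532 CPM in members and 508, 386, 300 and 643 CPM in others, a smaller difference of 0.61 (SE 0.16, adjusted p = 0.00482). The Gzmb call was lost without Havcr2fl/fl replicate 1, without the library block, after thinning, with at least 2 UMIs of Klrg1, S1pr5 and Zeb2 required of members and against the Tox-negative, non-cycling cells. Gzmm was called on 11 UMIs (3.40, SE 0.72), a call that was lost without Havcr2fl/fl;E8icre/+ replicate 1 (2.97, adjusted p = 0.060). Gzmm averaged 4.31 CPM in the others, so it can have passed the filter on low counts through the members alone. Prf1, encoding the pore former perforin, had 522, 238, 313 and 219 CPM against 311, 152, 236 and 308 CPM and was not called (0.18, adjusted p = 0.73). Nkg7, a granule membrane protein gene, was found in 60 of 60 members and was lower (2714 ± 502 against 3631 ± 647 CPM, log2 fold change -0.72, adjusted p = 1.54e-08), a call that was lost against the Tox-negative, non-cycling cells (-0.17, adjusted p = 0.41). Of the 60 members 39 had both Gzma and Gzmb and 3 had neither.

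**Figure D3:**
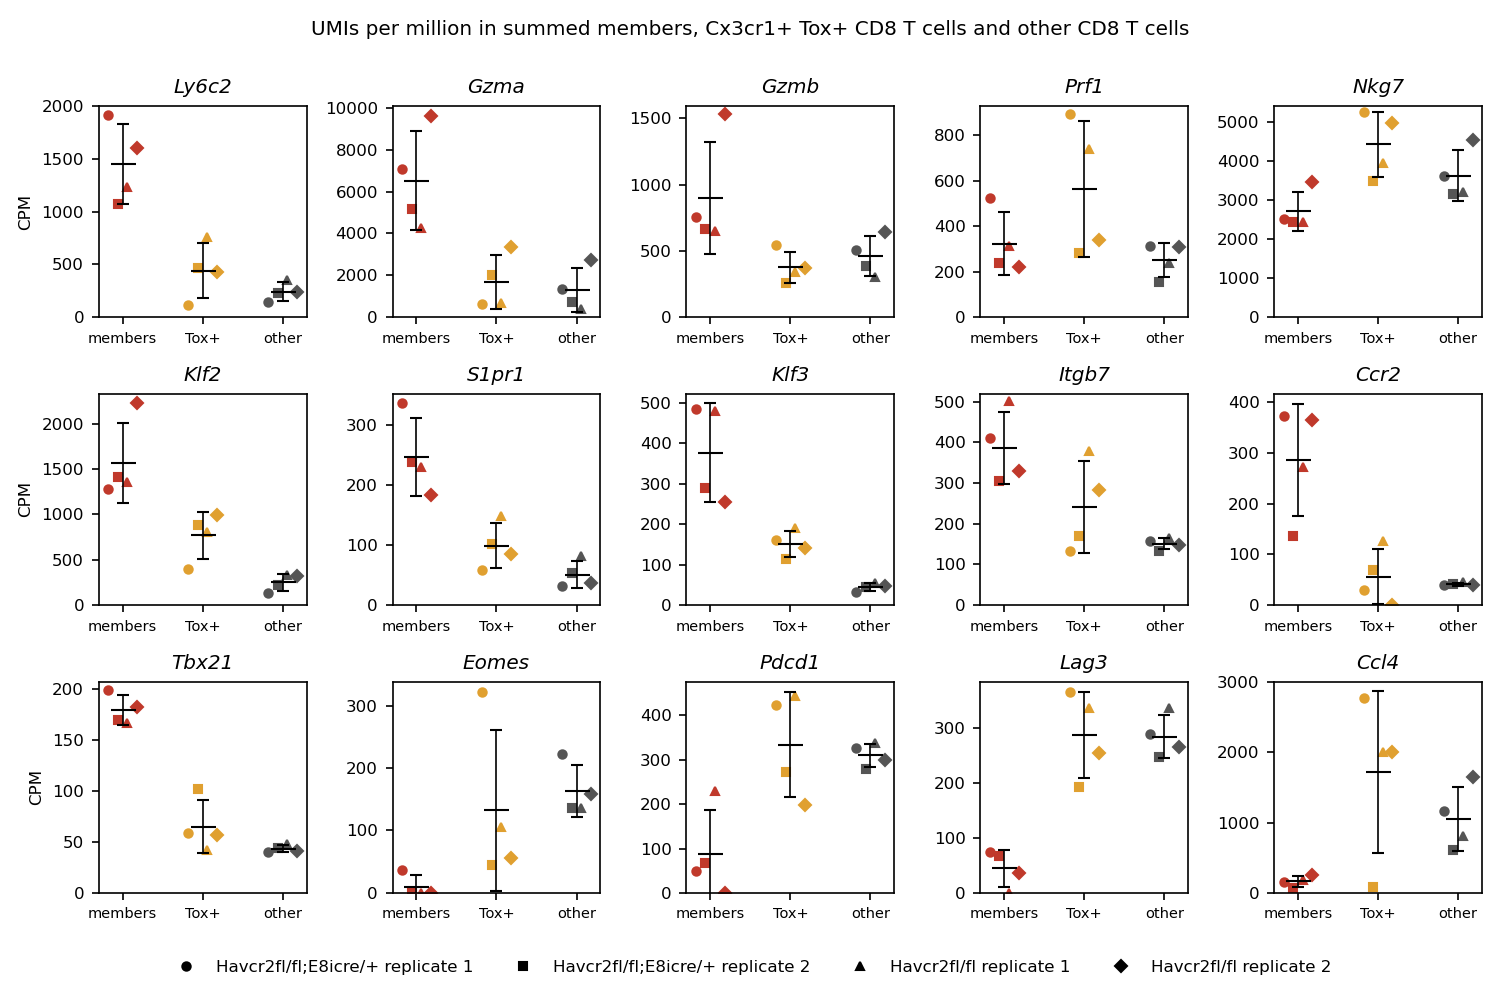
CPM (y axes) of 15 genes in summed members, in Cx3cr1+ Tox+ CD8 T cells (Tox+) and in other CD8 T cells, which include the Tox+ cells; each symbol is 1 library and bars are mean and SD (n = 4). All 4 libraries of members lie above those of both other classes for Gzma, Klf2, Ly6c2 and Tbx21.

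Killer lectin and NK-type receptor genes were higher in 7 of 12 tested and lower in 0 (16 listed, median 1.33). Klrk1, the gene of the activating receptor NKG2D, had 435, 475, 313 and 438 CPM in members and 50.1, 58.8, 84.0 and 77.4 CPM in others (log2 fold change 2.41, SE 0.25, adjusted p = 6.09e-19). Klrd1, the CD94 chain shared by NKG2 heterodimers, was called (1.21), as were its partners Klrc1 and Klrc2 and the related Klre1. Klrb1c had only 9, 7, 5 and 1 UMIs, or 112, 119, 104 and 36.5 CPM against 2.23, 8.83, 5.55 and 2.69 CPM (4.16, SE 0.55, adjusted p = 1.05e-11). Those UMIs came from 14 members, 13 of which also had a T cell receptor constant UMI. Fcgr2b, the inhibitory Fc receptor gene, was called on 9 UMIs. Fcgr2b averaged 2.11 CPM and Klrb1c 4.82 CPM in the others. Both are among the 7 and can have passed the filter on low counts through the members alone. Klrk1, Klrd1, Klrc1, Klrc2 and Klre1 were also higher against the Tox-negative, non-cycling cells, where 7 of the list were tested and the difference of Klrk1 was 1.17.

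Receptors of cytokines and chemokines were higher in 6 of 16 tested and lower in 2 (18 listed, median 0.14). Il18rap, the accessory chain of the IL-18 receptor, had 808, 492, 876 and 584 CPM in members and 58.3, 66.1, 134 and 57.2 CPM in others, without overlap (chr1:40515362-40551705, log2 fold change 2.91, SE 0.22, adjusted p = 9.56e-38). Ccr2, a receptor of inflammatory chemokines, had 373, 136, 271 and 365 CPM against 38.7, 40.5, 45.4 and 38.8 CPM (2.50, adjusted p = 6.14e-14). Its call was lost against the Tox-negative, non-cycling cells (0.43, adjusted p = 0.47), where Il18rap (2.19) and Cxcr4 were called. Over all other cells the Cxcr4 call was lost without Havcr2fl/fl;E8icre/+ replicate 1 (1.62, adjusted p = 0.0586). Il21r and Il2rb, chains of the IL-21 and IL-2 receptors, were lower, and the Il21r call (10 UMIs) was lost with DESeq2 and without either Havcr2fl/fl;E8icre/+ library.

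Cytokine and chemokine genes of the list went both ways. Ccl5 was the most abundant of the list, found in 60 of 60 members at 5 to 289 UMIs with a median of 96. It had 27203, 32101, 34146 and 31804 CPM against 16429, 12615, 15732 and 17463 CPM (0.71, SE 0.09, adjusted p = 6.02e-14). Ccl3 and Ccl4, which are induced by antigen receptor signals, were lower. Ccl4 had 162, 67.9, 188 and 255 CPM in members and 1159, 612, 808 and 1643 CPM in others (-2.97, SE 0.22, adjusted p = 6.20e-40), and Ccl3 had 3 UMIs in all. The Ccl4 call was lost against the Tox-negative, non-cycling cells (-0.63, adjusted p = 0.24). Ltb was also lower (-1.29, SE 0.23, adjusted p = 1.42e-06) and kept its call against those cells (-1.86, adjusted p = 4.28e-07). Of 13 listed 8 were tested, with 1 higher and 3 lower and a median of -1.06.

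Effector fate factors were higher in 3 of 10 tested and lower in 2, with a median of -0.29. Tbx21 had 199, 170, 167 and 182 CPM in members and 39.7, 44.4, 47.8 and 41.3 CPM in others (log2 fold change 1.80, SE 0.35, adjusted p = 1.38e-05), a call that was lost after thinning (1.15, adjusted p = 0.30). Hopx, a homeodomain cofactor of effector-memory cells, was higher by 2.03 (SE 0.25) and Id2, which holds E proteins in check, by 0.47 (SE 0.14). The Id2 call was lost in 7 alternatives, among them thinning (0.26) and the Tox-negative, non-cycling cells (0.24). Batf, an AP-1 factor induced by antigen, was lower (-2.05, adjusted p = 8.18e-06). Runx3, which sustains the CD8 lineage, was lower by -0.79 on the same scale, nearer to the median of all genes. Tbx21 (1.46) and Hopx (0.92) were the 2 genes of the list called against the Tox-negative, non-cycling cells.

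Memory and stem-like genes gave both directions, with 2 higher and 4 lower of 13 tested (15 listed, median -1.11). Eomes, the T-box relative of T-bet, had 3 UMIs, all in 1 library, against 163 ± 41.3 CPM in others (-3.89, SE 0.55, adjusted p = 2.90e-10). Xcl1 and Id3 had 0 UMIs and were at least 4.21-fold and 1.75-fold lower, taking 3 counts over the group as the floor. The Id3 call was lost in 9 alternatives, including without any 1 of the 4 libraries, and that of Xcl1 without Havcr2fl/fl;E8icre/+ replicate 2 (adjusted p = 0.0599) and without the library block. Lef1 (1.66, SE 0.38, adjusted p = 5.91e-04) and the chromatin organizer Satb1 were higher, and the Lef1 call was lost without Havcr2fl/fl;E8icre/+ replicate 1 (1.01, adjusted p = 0.41), after thinning (1.54, adjusted p = 0.115) and against the Tox-negative, non-cycling cells (0.51). Tcf7, the stem-like factor TCF-1, had 8 UMIs (-1.11, adjusted p = 0.21), and Il7r had 177 CPM against 148 CPM (0.07, adjusted p = 0.94). Against the Tox-negative, non-cycling cells 3 of 5 tested were lower, Slamf6, Tcf7 and Il7r, and 0 higher.

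Exhaustion genes were low, as far as cells chosen without Tox can show. Of 17 listed 15 were tested, 8 were lower and 0 higher, with a median of -2.43. Pdcd1, the gene of PD-1, had 49.8, 67.9, 229 and 0 CPM in members and 326, 279, 337 and 299 CPM in others (-2.09, SE 0.30, adjusted p = 5.89e-10). Lag3, another inhibitory receptor gene, had 74.6, 67.9, 0 and 36.5 CPM against 288, 247, 337 and 265 CPM (-2.75, SE 0.35, adjusted p = 1.57e-12). Neither gene overlapped between the classes. Tox2 had 0 UMIs and was at least 3.38-fold lower, Nr4a2 had 1 UMI and Cd160 and Ikzf2 had 4 each. The Tox2 call was lost without Havcr2fl/fl;E8icre/+ replicate 1 and after thinning, and that of Ikzf2, with all its UMIs in 1 library, with DESeq2. Pdcd1 or Lag3 was nonetheless found in 16 members, of which 11 had Gzma and 13 Gzmb. Of all 60 members 51 had Gzma and 45 Gzmb. Those 16 had a median of 4099 UMIs per cell, against 2943.5 in the remaining members. Against the Tox-negative, non-cycling cells Cd160 and Lag3 were lower, of 4 tested.

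Cell cycle genes were lower in 15 of 16 tested, which the absence of Mki67 and Top2a tied to the choice. Against the 446 Tox-negative, non-cycling cells 1 of 5 tested was called, Stmn1, which was higher. Glycolysis genes were lower in 6 of 13 tested and higher in 0 (15 listed, median -1.14). Gapdh had 597, 424, 563 and 620 CPM against 1376, 1141, 1329 and 1556 CPM (-1.57, SE 0.16, adjusted p = 1.50e-20), and Gapdh (-0.80) and Pkm (-0.88) were also lower, by less, against the Tox-negative, non-cycling cells. Tpi1 (-1.07, adjusted p = 0.345) and Pgk1 (-0.85, adjusted p = 0.187) lost their calls against those cells, and also after thinning.

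Surface activation genes were lower in 6 of 12 tested and higher in 2 (13 listed, median -0.75). Tnfrsf9, the costimulatory receptor 4-1BB, had 0 UMIs in members and was at least 10.2-fold lower. Cd27, another costimulatory receptor, had 8, 10, 2 and 0 UMIs (-1.95, SE 0.30, adjusted p = 1.17e-08), while Spn, the sialoglycoprotein CD43, was higher (1.25). T cell receptor signaling genes were lower in 4 of 14 tested (Egr1, Nfatc1, Zap70 and Nfkbia; 16 listed, median -0.44). The Egr1 call was lost without any 1 of the 4 libraries, and those of Nfatc1, Zap70 and Nfkbia in 4, 6 and 10 alternatives. Against the Tox-negative, non-cycling cells 0 of 12 were called. Of 13 interferon-stimulated genes tested 1 was called, Ifi27l2a, which was lower (15 listed, median -0.32), a share near the 6.41% of all genes called lower, with a median near the -0.36 of all genes. Of 12 BCL2 family genes 2 were lower (Bcl2a1b and Bcl2a1d, median -0.29), and Bcl2a1b lost its call in 7 alternatives. In either list 0 were higher.

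Outside the lists, Kcnj8, the gene of a potassium channel subunit, rose most. Kcnj8 (chr6:142564837-142571614, minus strand) had 16, 5, 5 and 2 UMIs in members, or 199, 84.9, 104 and 72.9 CPM, against 0.335, 1.54, 2.17 and 1.86 CPM in others (log2 fold change 6.31, SE 0.56, adjusted p = 1.44e-26). It was in 21 of 60 members and 24 of 4207 others. The 21 members were 13, 3, 3 and 2 by library, and all 21 had a Gzma UMI, as did 51 of all 60 members. Arl4c, a small GTPase gene, had 734, 628, 396 and 657 CPM against 77.6, 87.0, 92.6 and 96.9 CPM (2.51, SE 0.22, adjusted p = 3.57e-27). Against the Tox-negative, non-cycling cells Kcnj8 was higher by 3.98 and Arl4c by 1.15. The others were Rara, the retinoic acid receptor alpha gene, Med12l, 1700025G04Rik, Lair1, Socs2, Iffo2, Acss2 and Klhl6, at 2.46 to 3.59, with 7 to 57 UMIs each. Of these, Klhl6 lost its call against the Tox-negative, non-cycling cells (0.77, adjusted p = 0.111), Socs2 without any 1 of the 4 libraries, Iffo2 without any of 3, Med12l and Acss2 without either of 2, and Lair1 without Havcr2fl/fl;E8icre/+ replicate 2 (1.95). Apart from Klhl6 (39.9 CPM), these genes averaged 2.99 to 8.20 CPM in the others, and Kcnj8 averaged 1.48 CPM. A single UMI in a summed library of members was 12.4 to 36.5 CPM. Genes this low in the others can pass the filter on low counts through the members alone, so the ranking favors genes high in members. The 10 that fell most all had 0 UMIs in members, among them the mitotic genes Kif11, Cenpe, Hmmr, Knl1 and Kif15 and the histone gene Hist1h3c, at least 9.99-fold lower. The absence of Mki67 and Top2a tied the mitotic genes to the choice. Kif15 lost its call against cells without Mki67 and Top2a (adjusted p = 0.198), and Cenpe after thinning (adjusted p = 0.102).

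**Figure D4:**
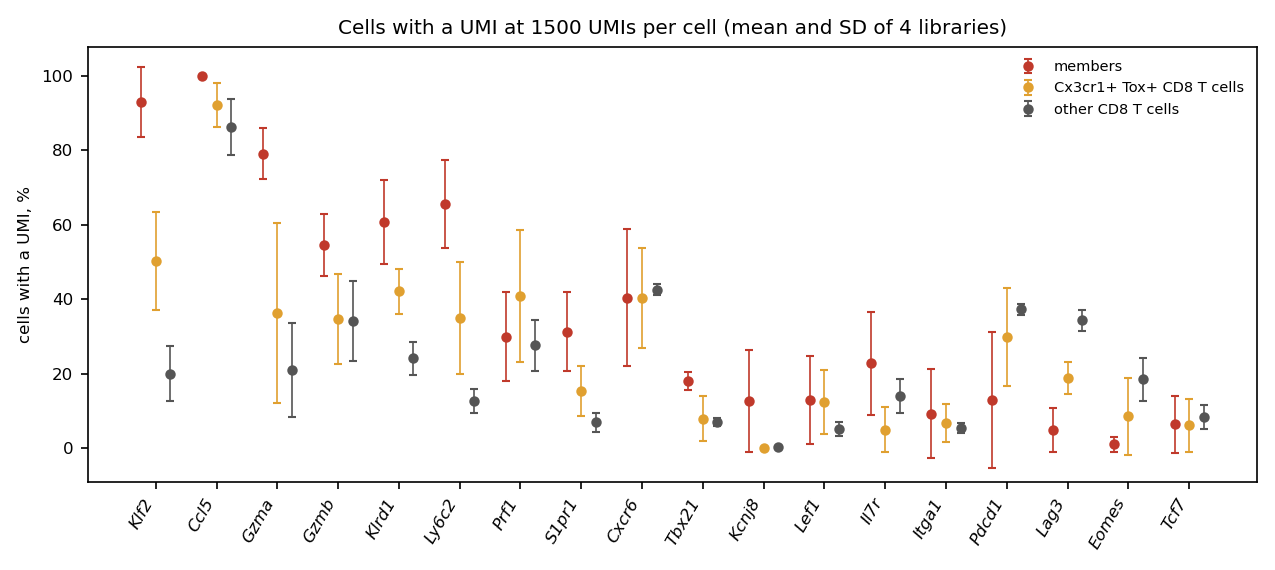
Percent of cells with a UMI (y axis) after each cell was thinned to 1500 UMIs, for 18 genes (x axis) in members, Cx3cr1+ Tox+ CD8 T cells and other CD8 T cells; points and bars are mean and SD of 4 libraries. Klf2 was found in 92.9%, 50.3% and 20.01% of the 3 classes, and Lag3 in 4.92%, 18.8% and 34.3%.

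The 46 cells that met every condition but had a Tox UMI were compared with the members separately. Of 18 egress, adhesion and migration genes tested 8 were higher in members, as were Gzma and Gzmb, while Lag3 and Pdcd1 were lower. With so few cells 778 genes were tested, of which 49 were higher in members (6.30%) and 33 lower (4.24%), and the median of all genes was 0.00. These cells also had more UMIs, with medians of 4844.5, 5878.5, 5678.5 and 2995, and they are among the other CD8+ T cells above, so the 2 comparisons share the members.

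Granule genes stood on both sides, with both granzymes that were called higher in members. Gzma had 614, 2011, 696 and 3368 CPM in the Tox-positive cells, below every library of members (log2 fold change 2.08, SE 0.21, adjusted p = 1.51e-07). Gzmb was higher in members (1.10, SE 0.23, adjusted p = 0.00200), while Prf1 (-0.79, adjusted p = 0.0259) and Nkg7 (-0.74, adjusted p = 1.30e-04) were lower. The Prf1 call was lost with DESeq2, without the filter on low counts, without the library block and without Havcr2fl/fl;E8icre/+ replicate 1 or Havcr2fl/fl replicate 1, and that of Gzmb after thinning. Thus 2 of 8 granule genes tested were higher and 2 lower. Ly6c2 had 117, 466, 759 and 425 CPM in the Tox-positive cells (1.75, SE 0.28, adjusted p = 2.58e-04), a call that was lost with DESeq2 (1.86, adjusted p = 0.0969).

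Of 18 egress, adhesion and migration genes tested, 8 were higher (Klf3, Itgb1, S1pr4, Rasgrp2, Klf2, Ahnak, Selplg and S100a10) and 1 lower (S100a4), with a median of 0.53. Ahnak and Klf2 were the 2 called with DESeq2, which gave some of the others no adjusted p, and the 2 called without Havcr2fl/fl;E8icre/+ replicate 1. After thinning 12 were tested, with Ahnak higher and S100a4 lower. Klf2 had 395, 886, 801 and 990 CPM in the Tox-positive cells, between the members and the other CD8+ T cells in all 4 libraries (1.01, SE 0.17, adjusted p = 3.24e-04). Il18rap (1.50), Klrk1 (1.07), Klrc1 (1.09), Hopx (0.98) and Id2 (0.81) were also higher in members. The largest rise was that of Arl4c (2.40, SE 0.31, adjusted p = 1.33e-05), followed by Gzma, 9930111J21Rik2, Ly6c2 and Ccnd2, the gene of cyclin D2 (1.64, SE 0.24).

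Ccl4 fell most, from 2780, 90.9, 2003 and 2009 CPM in the Tox-positive cells (-3.43, SE 0.27, adjusted p = 4.10e-09), although 1 of those libraries was within the range of the members. Both exhaustion genes tested were lower. Lag3 (-2.51, SE 0.45, adjusted p = 4.70e-04), Pdcd1 (-2.02, SE 0.39, adjusted p = 9.69e-04), Cd27 (-1.97) and Sh2d2a, a T cell adaptor gene (-1.44), all fell, and the Pdcd1 call was lost without Havcr2fl/fl;E8icre/+ replicate 1 (-1.58, adjusted p = 0.0571). For Pdcd1 the classes overlapped, with 229 CPM in members of Havcr2fl/fl replicate 1 and 198 CPM in Tox-positive cells of Havcr2fl/fl replicate 2. Kcnj8 and Klrb1c had no UMI in the 46 cells, which allows a share of up to 6.52% of cells with a UMI. Both genes are sparse and were below the filter on low counts here.

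The genotypes were compared within the members, to ask whether donor cells with the cre allele had other RNA levels. Of 869 genes tested, 0 were called (0%) by edgeR, with 23 at an unadjusted p under 0.05, and 0 by DESeq2, with 3. Gzma was at -0.15 (SE 0.36), Gzmb at -0.54 (SE 0.41), Prf1 at 0.51 (SE 0.47), Klf2 at -0.38 (SE 0.32), S1pr1 at 0.47 (SE 0.41) and Ly6c2 at 0.11 (SE 0.35), as log2 fold changes of the libraries labelled Havcr2fl/fl;E8icre/+ over those labelled Havcr2fl/fl. The smallest p was that of Ifi27l2a, named here after its values were seen. It had 423, 255, 41.7 and 72.9 CPM in members (2.65, SE 0.60, unadjusted p = 0.00174 and adjusted p = 0.999 by edgeR) and 625, 780, 410 and 389 CPM in other CD8+ T cells, higher in both Havcr2fl/fl;E8icre/+ libraries of either class. With 2 libraries each and 10 to 25 cells per library, these standard errors leave sizable differences undetectable. A test of whether the genotype effect differed between members and other CD8+ T cells called 2 of 9727 genes (0.0206%), Trbc2 and Hist1h1c.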

How the data were processed

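UMI counts per gene and barcode were deposited by the authors, who made them from 10x 3′ libraries; the submitters' processing notes name Cell Ranger 6.1.2 and mm10. The values are counts as deposited, with no normalization, and the 1 antibody tag entered no library size. The 4 libraries held 4328, 3208, 1511 and 6737 barcodes and 38386626, 31449644, 17693991 and 55045903 gene UMIs.

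Cells were filtered and chosen as given above. Members, gene lists and tests were chosen with earlier results of these data known. UMIs were summed per library and class and tested with edgeR 4.0.16 (R 4.3.3, TMM, filterByExpr, quasi-likelihood test, Benjamini-Hochberg adjustment over all genes tested, threshold 0.05) with the library as a block, except between genotypes. Class comparisons thus rest on 4 libraries and genotypes on 2 against 2. The labels do not say that libraries came from separate mice, so the spread that p-values rest on may be technical. In fits with the library as a block it is the spread of the difference between classes over libraries. In the genotype comparison within members it is the spread between libraries of a genotype. Named genes were up to 4 called genes per list with the largest change and the same sign in all 4 libraries, the 10 each way outside the lists with a mean of at least 20 CPM, and up to 5 each way against Tox-positive cells; further genes were picked with their values in view. Shares of cells were also taken after thinning to 1500 UMIs (seed 1), which left out 0 members. Scrublet marked 119 cells and a rate of 0.8% per 1000 barcodes 438, with 0 members in either, and both were tried as alternatives only. Libraries shared 1 to 10 barcodes per pair. Other alternatives were DESeq2 1.42.0 and its size factors, plain library sizes, no filter on low counts, stricter cells or members, other comparison cells, thinned counts, no block and leaving out each library. The scripts were tested on simulated data. Results for some genes are not reported here. Positions come from GENCODE M21 for 99.6% of genes.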

Additional observations from a re-analysis of the deposited data

Results flagged for a closer look

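Trbc2 and Hist1h1c drew attention because the genotype effect in members differed from that in other CD8+ T cells by a test of the difference itself (edgeR interaction term). For Trbc2, a constant gene of the T cell receptor beta chain, the log2 difference was 1.25 (SE 0.26, adjusted p = 0.0165). It had 117, 118, 38 and 32 UMIs in members (Havcr2fl/fl;E8icre/+ replicates 1 and 2, then Havcr2fl/fl replicates 1 and 2), or 1455, 2003, 793 and 1167 CPM, against 1935, 2212, 2261 and 2504 CPM in other CD8+ T cells. Its call was lost with DESeq2 (1.16), without any of 3 libraries (1.13 to 1.30) and with plain library sizes (1.04). Reads near the 3′ end can be shared between Trbc1 and Trbc2, so the split between them is uncertain.

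For Hist1h1c, a linker histone gene, the log2 difference was 3.56 (SE 0.79, adjusted p = 0.0287). It had 15, 22, 1 and 1 UMIs in members, or 187, 373, 20.9 and 36.5 CPM, against 154, 181, 117 and 253 CPM in other CD8+ T cells. The call was lost without any 1 of the 4 libraries and in 4 of the other alternatives, with values between 3.17 and 3.84.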

How the results depend on the processing

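Genes called in members against other CD8+ T cells, 172 higher and 579 lower, came to 160 and 136 with DESeq2, 238 and 366 with its size factors, 293 and 315 with plain library sizes, 63 and 213 after thinning and 109 and 466 under a stricter rule for members. Against cells without Mki67 and Top2a they came to 145 and 344, and against cells also without Tox to 67 and 82. Leaving out 1 library gave 80 to 160 higher and 287 to 407 lower, lowest without Havcr2fl/fl;E8icre/+ replicate 1. Against Tox-positive cells, 49 higher and 33 lower became 8 and 6 with DESeq2, 6 and 8 after thinning, 23 and 11 without the library block, 32 and 23 with stricter cells and 33 and 53 without a filter on low counts, and 15 to 49 and 16 to 31 without 1 library, lowest without Havcr2fl/fl;E8icre/+ replicate 1. Without 1 library, 1 genotype is left with a single library. Counts of genes called between genotypes, in members or by the interaction, are therefore not given for those fits. The interaction called 0 genes with DESeq2 and with plain library sizes, 1 without a filter, 1 with stricter cells and 3 with doublets removed by rate. The log2 ratio of the shares of members was 0.0018 and changed sign with Scrublet doublets removed (-0.0029), with the choice made after thinning (-0.15) and with alpha-beta T cells only (-0.024), and ran from -0.45 to 0.66 without 1 library. Under the stricter rule for members the log2 ratio was 0.37. Of 1316 alternatives over 85 named results, 1188 kept their direction and side of the threshold, 128 lost the call and 0 reversed. Alternatives in which a gene was not tested or had no adjusted p were not counted. After thinning 45 kept the call and 14 lost it, and against the Tox-negative, non-cycling cells 22 kept it and 14 lost it. Either removal of doublets, which took out 0 members, left all 85 the same. The cause of these changes was not tested.

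The labels number the libraries 1 and 2 in both genotypes without saying that a number marks a pair. Deviations of equally numbered libraries correlated at -0.054 over 815 genes, with 2 pairs only. With the replicate number as a block the genotype called 0 genes in members, with 15 at an unadjusted p under 0.05, and the log2 ratio of shares was 0.099.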
